A study of Mus musculus with 12 samples.

Results

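Immediate early genes are genes that a cell can transcribe within minutes of a stimulus without making new protein first. The 10 genes described here were Fos, Fosb, Fosl1, Fosl2, Jun, Junb, Egr1, Ier2, Atf3 and Dusp1, out of 21729 genes in the table of read counts. They were followed over 12 single cultured cardiac progenitor cells (CPCs), named CPC1 to CPC12. CPC6 was chosen by its Fos level, the highest of the 12, and was set against the other 11 cells. The remaining genes were listed with results of these data known, so every value of a member is a description.

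The question behind the series was what happens to gene expression of cardiac progenitor cells when they are cultured. The CPCs were lineage-depleted c-Kit+ non-myocytes from hearts of FVB mice aged 12 weeks, described as female, and had been expanded as an adherent culture through 5 passages. By the study's methods, cells of 2 hearts were pooled at isolation, and the cultured cells were detached with trypsin and picked singly by pipette. The medium held serum, leukemia inhibitory factor, basic fibroblast growth factor and epidermal growth factor. Full-length cDNA of each cell was made with the Smart-Seq v4 kit and sequenced after Nextera XT library preparation, and all 12 cells shared this treatment and form 1 group. The labels tie no cell to an animal or dish, so the group counts as 1 sample, no test was made between cells, and the spread given is that among these cells.

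Growth factors and stress reach immediate early genes mainly through the mitogen-activated protein (MAP) kinase cascades. These kinases act on transcription factors already present in the nucleus, serum response factor (SRF) with its ternary complex partners and the cAMP response element binding protein (CREB). Proteins of the Fos and Jun families pair into the AP-1 transcription factor. The transcripts are usually short-lived, and products such as the phosphatase DUSP1 switch the kinases off again. Cultured stromal cells are known to induce these genes on serum stimulation and when they are detached or dissociated.

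Levels are given as CPM, the read count scaled to a total of 1000000 per cell. Totals ran from 3453708 to 5690184 counts, with 3764196 in CPC6, and a gene at 0 counts could lie at up to 0.527 to 0.869 CPM, the level of 3 counts. Kit, the gene behind the c-Kit label, had 21 counts in CPC10 and 0 in each of the other cells. The summed level of the Y-linked genes Ddx3y, Eif2s3y, Kdm5d and Uty lay between 9.76 and 267 CPM over the cells, although the source mice were described as female. CPC10, CPC3 and CPC11 stood apart from the rest, with 9792 CPM of 10 endothelial markers in CPC10, 1623 CPM of 10 haematopoietic markers in CPC3 and 3737 CPM of 10 mural markers in CPC11. Cd53 held most of the sum in CPC3 (1463 CPM) and Acta2 most of that in CPC11 (3668 CPM). The sum in CPC10 was spread over several markers, Emcn (3322 CPM), Plvap (2579 CPM) and Pecam1 (1422 CPM) among them. Without CPC3 and CPC10, the summed level of the 10 genes in CPC6 was 5.02 times the median of the remaining cells, against 4.43 times with them and 4.71 times without CPC11.

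In CPC6, 4 of the 10 genes had their highest level of the 12 cells, Fos, Fosb, Atf3 and Dusp1. The stretches before their RefSeq transcription starts are shown because CREB and related factors read cAMP response elements in such windows. The sequences are the 250 bases before the RefSeq start on GRCm38.p6, printed 5′ to 3′ on the strand of the gene. Fos lies on chr12:85473640-85473889 on the plus strand, Fosb on chr7:19310046-19310295, Atf3 on chr1:191183334-191183583 and Dusp1 on chr17:26508473-26508722, the last 3 on the minus strand. The RefSeq starts of Atf3 and Dusp1 differ from the outermost GENCODE starts, so these windows lie inside the GENCODE spans given with the levels of the genes, and that of Fosb overlaps the end of its span. Capitals mark the core letters TGACG or CGTCA, which are the same core on either strand, and the full palindromic element TGACGTCA.
Fos: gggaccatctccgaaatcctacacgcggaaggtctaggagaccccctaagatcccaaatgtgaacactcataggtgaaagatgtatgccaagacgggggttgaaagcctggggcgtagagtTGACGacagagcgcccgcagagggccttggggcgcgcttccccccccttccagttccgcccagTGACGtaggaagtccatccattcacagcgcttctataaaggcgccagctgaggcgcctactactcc
Fosb: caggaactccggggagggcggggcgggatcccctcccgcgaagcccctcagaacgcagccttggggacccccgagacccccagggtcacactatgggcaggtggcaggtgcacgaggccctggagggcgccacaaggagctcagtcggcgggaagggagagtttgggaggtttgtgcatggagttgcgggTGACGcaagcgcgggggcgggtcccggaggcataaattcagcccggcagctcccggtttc
Atf3: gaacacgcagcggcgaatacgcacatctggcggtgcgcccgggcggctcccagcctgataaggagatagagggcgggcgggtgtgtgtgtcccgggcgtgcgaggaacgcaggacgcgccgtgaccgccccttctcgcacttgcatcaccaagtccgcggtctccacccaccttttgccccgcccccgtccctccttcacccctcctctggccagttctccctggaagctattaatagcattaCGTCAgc
Dusp1: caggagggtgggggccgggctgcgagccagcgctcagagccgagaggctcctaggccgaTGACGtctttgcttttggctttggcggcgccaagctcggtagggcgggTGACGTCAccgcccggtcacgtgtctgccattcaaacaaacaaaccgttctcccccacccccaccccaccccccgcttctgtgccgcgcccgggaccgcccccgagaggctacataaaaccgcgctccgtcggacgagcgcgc

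The first base of the matches lay 129 and 66 bases before the start in Fos, 60 bases before it in Fosb, 7 bases in Atf3 and 191 and 143 bases in Dusp1. The match at 143 bases in Dusp1 was the full element and therefore holds the core on each strand. A window was found for 7 of the 10 genes, and 5 of these 7 held the core, the fifth being Junb. Among 32851 promoter windows of the same length, 17.8% held the core and 1.55% held the full element, so the core is a common string. The letters TATAAA stood 33 bases before the start of Fos and in 7.59% of all windows. Neither the AP-1 site TGANTCA, present in 6.75% of windows, nor the CArG box read by SRF, present in 1.47%, matched in any of the 7 windows. Sites further than 250 bases before the start were not searched, and Egr1, Ier2 and Fosl1 had no window. The lack of a match thus does not show that these genes lack such sites. A match describes letters in the window and is not a measured binding site.

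Fos encodes the founding member of the Fos family, a partner of Jun proteins in AP-1. The gene spans chr12:85473890-85477273 in mm10 and has 4 exons. CPC6 held 4961 Fos counts (exact 95% Poisson interval 4824 to 5101, which covers counting error only). This was 1318 CPM, against 0 CPM in CPC7 and CPC8, a median over the other 11 cells of 8.66 CPM and 34.4 CPM in CPC10, the next highest. The level in CPC6 was 152 times that median and 38.4 times the level in CPC10. The mean over all cells was 122 CPM with an SD of 377 CPM, so the mean lay far above 11 of the 12 cells. The remaining cells did not share 1 level either, since CPC1, CPC2, CPC3 and CPC10 held 31.6, 19.8, 29.5 and 34.4 CPM and the other 7 lay below 10 CPM.

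Fosb, the Fos relative best known from neurons, spans chr7:19302696-19310051. It reached 106.0 CPM in CPC6 and 102.9 CPM in CPC5, and the Poisson intervals of 95.9 to 117 and 94.2 to 112 CPM overlapped. Its median over the 11 cells was 14.8 CPM, and the lowest level was 1.20 CPM in CPC4. Fosb was thus high in a pair of cells, of which CPC5 had only 4.58 CPM of Fos.

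Fosl1 and Fosl2 encode Fra-1 and Fra-2, members of the family without the transactivation domain of Fos that are typically made later and persist longer. Fosl1, on chr19:5447547-5455946, had 139 CPM in CPC6, a median of 172 CPM in the others and a range there from 103 CPM in CPC10 to 331 CPM in CPC1. Fosl2, on chr5:32135801-32157842, had 32.1 CPM in CPC6 and a median of 35.1 CPM, from 10.3 CPM in CPC9 to 122 CPM in CPC5. For both genes CPC6 sat inside the range of the other cells, at rank 10 and rank 8. Fosl1 varied least of the 10 genes, with a coefficient of variation of 0.351. Fosl1 shares 1163 exonic bases with Ccdc85b on the opposite strand, and since the strand rule of the counting is not stated, reads of the pair cannot be told apart there.

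**Figure D1:**
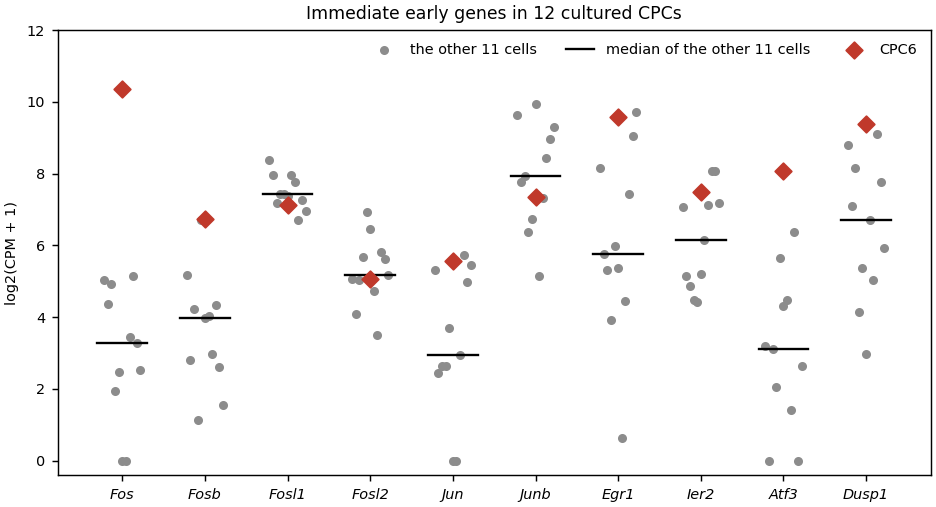
Level of each of the 10 immediate early genes in each of the 12 cells, as log2(CPM + 1) on the y axis. Red diamonds are CPC6, other points the remaining 11 cells, and the black line their median; CPC6 stands 7.09 above the median for Fos and 0.31 below it for Fosl1. For Fosb the point of CPC5 lies under the diamond.

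Jun, the prototype partner of Fos, is a gene of 1 exon on chr4:95049034-95052222. It had 46.8 CPM in CPC6 (interval 40.1 to 54.2) and 52.2 CPM in CPC10 (46.2 to 58.7), so the order of these cells is within counting error. CPC12 with 43.2 CPM, CPC1 with 38.5 CPM and CPC11 with 30.9 CPM followed, the median of the 11 cells was 6.71 CPM, and CPC7 and CPC8 had no count. High Jun was therefore not particular to the cell with high Fos.

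Junb, a Jun relative with weaker transactivation at many AP-1 sites, lies on chr8:84974484-84978718 and also has 1 exon. Its level in CPC6, 161 CPM, lay below the median of 246 CPM. The range in the other cells ran from 34.4 CPM in CPC8 to 976 CPM in CPC7, with 800 CPM in CPC1 and 630 CPM in CPC12. CPC7, the cell with the most Junb, had 0 counts of Fos and of Jun. The remaining Jun gene, Jund, had at most 1 count in any cell. It shares 877 exonic bases with Gm11175 on the opposite strand, so its counts are uncertain, and it was left out of the Jun family values.

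Because a longer transcript yields more reads, levels of different genes were compared as CPM per kb of exon. On that scale the Fos family summed to 733 in CPC6 and to between 74.5 and 207 in the others, with a median of 106. Fos made up 85.3% of that sum in CPC6, while its share in the other cells ran from 0 to 19.2% with a median of 3.77%. Fosl1 made up 10.2% in CPC6 and 65.0 to 94.4% elsewhere. The Fos family pool of CPC6 was thus mostly Fos and that of each other cell mostly Fosl1, within the uncertainty of the Fosl1 counts from the overlap with Ccdc85b. The Jun family, summed over Jun and Junb, stood at 104 CPM per kb in CPC6, inside the range of 19.0 to 540 and below the median of 137. Junb held 85.9% of it in CPC6 and 92.2 to 100% in the others.

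**Figure D2:**
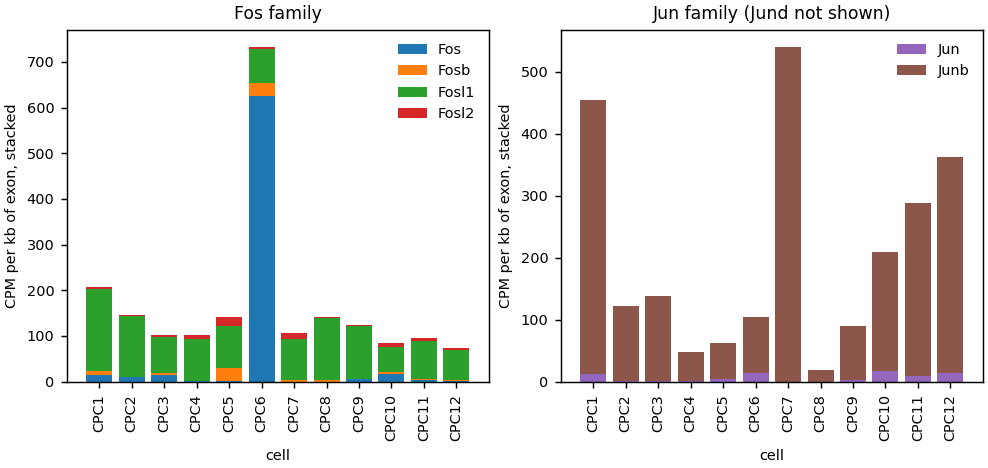
Fos family and Jun family transcripts in each cell, as stacked CPM per kb of exon. The Fos part is the main one in CPC6 (85.3% of the Fos family), Fosl1 is in the other 11 cells, and Junb is higher than Jun in all 12; the Jun family here is Jun and Junb, without Jund.

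Egr1 encodes a zinc finger transcription factor with strong SRF control, and lies on chr18:34859823-34864984. CPC6 had 770 CPM (interval 742 to 799), below the 843 CPM of CPC12 (819 to 867). CPC11 had 534 CPM, CPC1 284 CPM and CPC10 170 CPM, the median of the 11 cells was 53.3 CPM, and CPC8 had 3 counts. High Egr1 thus occurred in cells with little Fos, since CPC12 had 4.75 CPM and CPC11 had 8.66 CPM of Fos.

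Ier2 is a small immediate early gene of 1 exon on chr8:84661331-84662852. It had 179 CPM in CPC6, at rank 3 behind 269 CPM in CPC10 and 266 CPM in CPC11. The median of the 11 cells was 70.7 CPM and the lowest was 20.5 CPM in CPC5. Here too CPC6 was above the median and inside the range of the others.

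Atf3, a stress-inducible factor of the ATF/CREB family, spans chr1:191170296-191218039. It stood at 270 CPM in CPC6, 81.9 CPM in CPC10 and 48.8 CPM in CPC5, with a median of 7.65 CPM and 0 counts in CPC2 and CPC11. After Fos it had the largest ratios of CPC6 among the members, at 3.30 times the next cell and 35.3 times the median.

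Dusp1, the phosphatase that inactivates MAP kinases, spans chr17:26505590-26562128. It had 674 CPM in CPC6 (interval 648 to 701) and 546 CPM in CPC10 (527 to 566), intervals that did not overlap. CPC1 held 447 CPM, the median was 104 CPM and the lowest level was 6.85 CPM in CPC7. The ratio of CPC6 to the next cell was 1.23, so Dusp1 was highest in CPC6 by a small margin.

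Set against the median of the other cells on the log2(CPM + 1) scale, 7 of the 10 genes were at least 2-fold higher in CPC6. Over the 14462 genes with a count in any cell this held for 17.0%, a share that was 8.22% with a pseudocount of 5 CPM in place of 1 CPM. None of the 10 was at least 2-fold lower, against 6.57% of all genes, and 4 were highest in CPC6, against 8.68%. The differences were 7.09 for Fos, 4.97 for Atf3, 3.83 for Egr1, 2.76 for Fosb, 2.69 for Dusp1, 2.63 for Jun and 1.33 for Ier2. Fosl2, Fosl1 and Junb had differences of -0.13, -0.31 and -0.60. The median of the 10 differences was 2.66, and over all genes with a count it was 0.05. Since CPC6 and the genes were picked on these values, nothing further is read from the counts.

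The summed level of the 10 genes was 3696 CPM in CPC6, and in the others it ran from 369 CPM in CPC4 over a median of 834 CPM to 2142 CPM in CPC1. Fos made up 35.7% of the sum in CPC6 and at most 3.54% elsewhere. Without Fos the sum was 2378 CPM in CPC6, with a median of 804 CPM and a highest value of 2110 CPM in CPC1. The position of CPC6 above CPC1 thus narrowed to a small margin once Fos was left out.

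**Figure D3:**
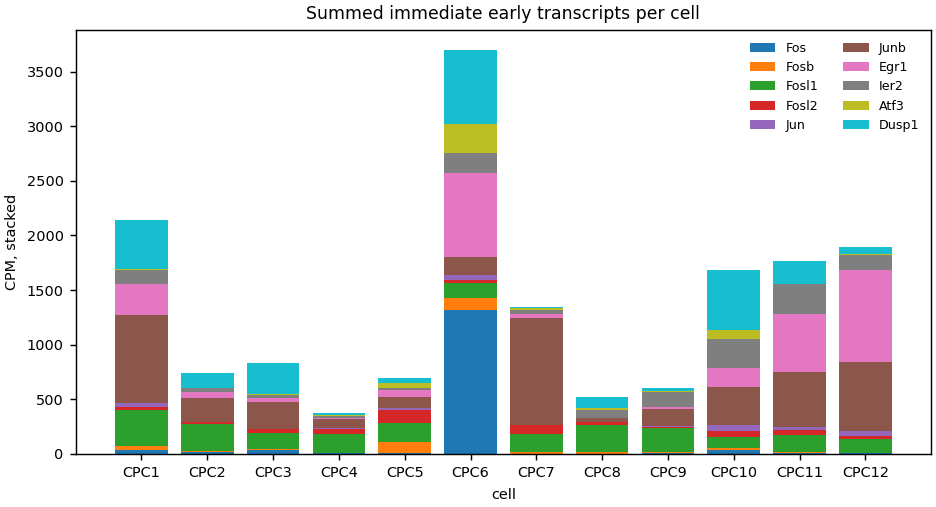
Summed level of the 10 genes in each cell, as stacked bars in CPM from 0. CPC6 reaches 3696 CPM, of which Fos is 35.7%, and CPC1, CPC12, CPC11 and CPC10 follow with 2142, 1890, 1768 and 1679 CPM.

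Other cells carried part of the set with other leading genes. In CPC1, 6 of the 10 were at least 2-fold higher than the median of the remaining cells, where 15.3% of all genes were. CPC10 also had 6, against 15.0% of all genes, and CPC11 had 5, against 10.9%. In CPC4, 8 of the 10 were at least 2-fold lower, against 8.12% of all genes. Levels peaked in CPC1 for Fosl1, in CPC5 for Fosl2, in CPC7 for Junb, in CPC10 for Jun and Ier2 and in CPC12 for Egr1. The peaks of the members were thus spread over several cells.

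Per kb of exon, CPC6 held 625 CPM of Fos, followed by 284 of Dusp1, 172 of Egr1, 125 of Atf3 and 118 of Ier2. Junb with 89.1, Fosl1 with 74.4, Fosb with 28.0, Jun with 14.7 and Fosl2 with 4.92 CPM per kb came after them. In the medians of the other 11 cells the order began with Junb at 136, Fosl1 at 92.4, Ier2 at 46.5, Dusp1 at 43.7 and Egr1 at 11.9. Fosl2, Fos, Fosb, Atf3 and Jun ended it, between 5.38 and 2.10 CPM per kb. In each of the 9 neighbouring pairs of that second order, the ranges over the 11 cells overlapped. Fos moved from rank 7 in the medians to rank 1 in CPC6.

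How the genes varied together was described by Pearson's r of log2(CPM + 1) over the cells, which share their protocol and are of 1 sample, so r carries no test. The 45 pairs of members had a median r of 0.16, and 8 of them reached 0.6. Without CPC6 the median was 0.13, and 5 pairs reached 0.6. Jun and Egr1 had an r of 0.85 over 12 cells and 0.83 over the 11 cells without CPC6. Fos and Dusp1 had 0.75 in both, Fos and Jun had 0.68 and 0.70, Junb and Egr1 had 0.68 and 0.80, and Fosb and Atf3 had 0.75 and 0.65. These pairs did not rest on CPC6, whereas Fos and Atf3 went from 0.37 to -0.17 without it. Fos, Dusp1, Jun, Egr1 and Junb were thus linked through these pairs. No pair of these genes with Fosb or Atf3 reached 0.6 over 12 cells. A negative r was found for 13 pairs over 12 cells and for 19 without CPC6.

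**Figure D4:**
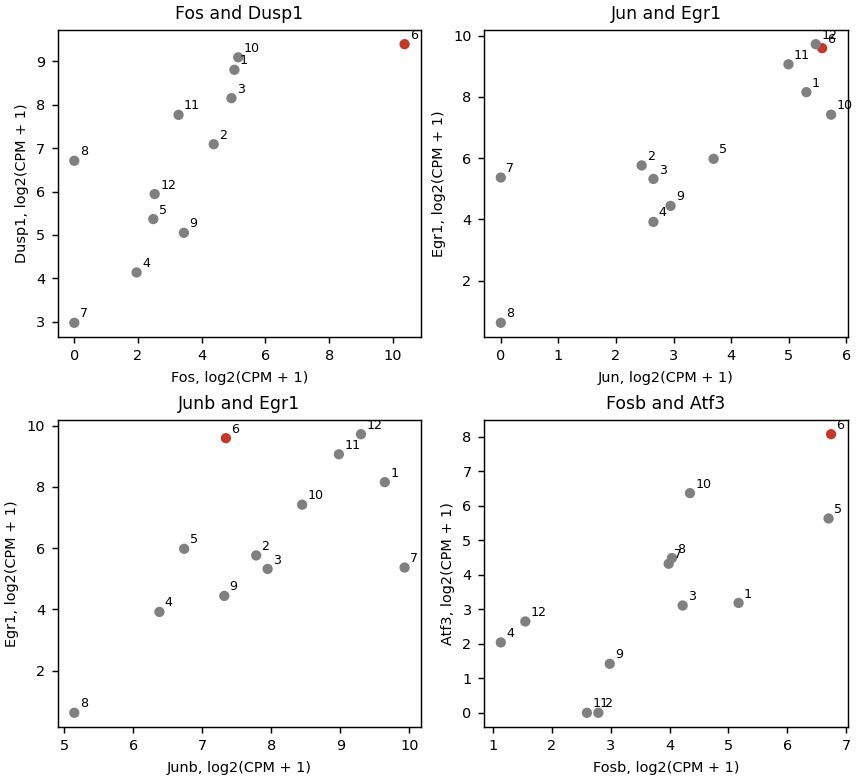
Levels of 4 pairs of members in the 12 cells, each axis in log2(CPM + 1), points numbered by cell and CPC6 in red. The pairs, picked after their values were seen, have r of 0.75 (Fos and Dusp1), 0.85 (Jun and Egr1), 0.68 (Junb and Egr1) and 0.75 (Fosb and Atf3).

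Across 9725 genes with a mean of 5 CPM or more, the 10 whose levels were most like Fos were Gpx3 (a secreted glutathione peroxidase), Nudt22, Gm45871, Bet1l, Rsf1, Hspa13, Aak1, Ppcs, Mmp23 and Dusp1, with r from 0.84 for Gpx3 to 0.75 for Dusp1 over 12 cells. Gpx3 had 947 CPM in CPC6 and 415 CPM in CPC1, the next highest, and its r without CPC6 was 0.80. Mmp23 had an r of 0.37 without CPC6, so its likeness leaned on that cell. Among the members, Jun ranked 50, Egr1 144, Fosb 595, Ier2 979, Atf3 1244, Junb 4169, Fosl1 7758 and Fosl2 7993 in likeness to Fos. The pattern of the mean of the other 9 members was most like H2-T23, Glg1, Tmem176a, Sgce, Adamtsl4, Rnf215, Tmem176b, Pros1, Brwd1 and Nat14, with r from 0.83 to 0.77.

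Among 3918 genes with at least 50 CPM in CPC6, those with the largest ratio of CPC6 to the next highest cell were Fos, Arhgef6, Mmp23, Sesn3, Atf3, Tsc22d3, Plscr4, Cnp, Il18 and Bmt2. After Fos the ratios ran from 4.87 for Arhgef6 to 2.48 for Bmt2. Fos and Atf3 were the members among these genes, and the place of Fos follows from the choice of CPC6 by its Fos level.

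Of 40 further immediate early genes, 39 had a count. In CPC6, 16 were at least 2-fold higher and 3 at least 2-fold lower than the others' median, against 17.0% and 6.57% of all genes, and the list's median difference was 0.83. Transcription factors among the higher genes included Egr2 (57.1 CPM, median of the others 17.9), Klf2 (68.5 and 9.75), Klf6 (408 and 195) and Csrnp1 (64.3 and 29.4). Klf6 and Csrnp1 were highest in CPC6, whereas Egr2 reached 436 CPM in CPC12 and Klf2 reached 209 CPM in CPC10. Regulators of growth and survival followed, with Ier3 at 338 CPM and a median of 97.0, Btg2 at 128 and 47.5, Gadd45g at 336 and 115, Plk2 at 422 and 172, and Plk3 at 97.5 and 31.2. Each of these 5 genes was higher in another cell, such as Ier3 in CPC10 with 1061 CPM and Gadd45g in CPC2 with 958 CPM.

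Genes that restrain signalling were also in the list. Nfkbia, the inhibitor of NF-kappaB, had 401 CPM in CPC6, a median of 117 CPM and at most 302 CPM elsewhere. Socs3, an inhibitor of cytokine receptors of the leukemia inhibitory factor type, had 45.2 CPM against 9.20, with 47.5 CPM in CPC7. Errfi1, an inhibitor of the epidermal growth factor receptor, had 91.9 CPM against 43.0, and Trib1 had 59.0 against 7.22. Nfkbia was the member of this group that was highest in CPC6. Sgk1, a kinase induced by serum and glucocorticoids, had 743 CPM against 307, and the clock gene Per1 had 67.5 against 26.2, both highest in CPC6.

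The 3 lower genes were Ier5 (10.1 CPM, median of the others 36.1), Klf10 (48.4 and 166) and Ptgs2, which encodes the inducible cyclooxygenase (23.4 and 292). Ptgs2 reached 1240 CPM in CPC12. The remaining gene counted as higher was Nr4a3, with 1.06 CPM in CPC6. The sum of the list was 5718 CPM in CPC6, inside the range of 1923 to 9475 CPM of the other cells.

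Feedback inhibitors of the MAP kinase pathway other than Dusp1 were 15 genes, of which 4 were at least 2-fold higher and 1 was lower. Dusp6, a phosphatase for ERK, had 164 CPM against a median of 36.4 and reached 250 CPM in CPC10. Spry4, an inhibitor of receptor tyrosine kinase signalling, had 37.2 CPM against 7.53 and was highest in CPC6. Spred3 and Dusp8 were higher at 9.56 and 4.25 CPM, and Dusp5 was lower at 32.4 CPM against 189. Of 9 genes for SRF, its partners and CREB proteins none was past 2-fold in either direction, with a median difference of -0.17. Of 19 MAP kinase genes 2 were higher, Mapk8 at 15.9 CPM against 6.37 and Map2k6 at 3.98 CPM against 0. Over all genes, 17.0% were higher and 6.57% lower by this measure.

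Of 12 other AP-1 partners with a count, Maf was higher at 1.33 CPM, and Jdp2 and Mafg were lower at 32.7 CPM against 76.0 and 25.8 CPM against 69.6. Genes often named as AP-1 targets went both ways, 4 of 12 higher and 3 lower, against 17.0% and 6.57% of all genes. Mmp3, Plau, Ccnd1 and Ccl2 were the higher genes, of which cyclin D1 gene Ccnd1 was highest in CPC6 with 2077 CPM against 892. Mmp3 had 41.2 CPM in CPC6 and 657 CPM in CPC3. Plaur, Lif and Spp1 were the lower genes, Spp1 with 16.7 CPM against 77.8. The median difference of these targets was -0.07.

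**Figure D5:**
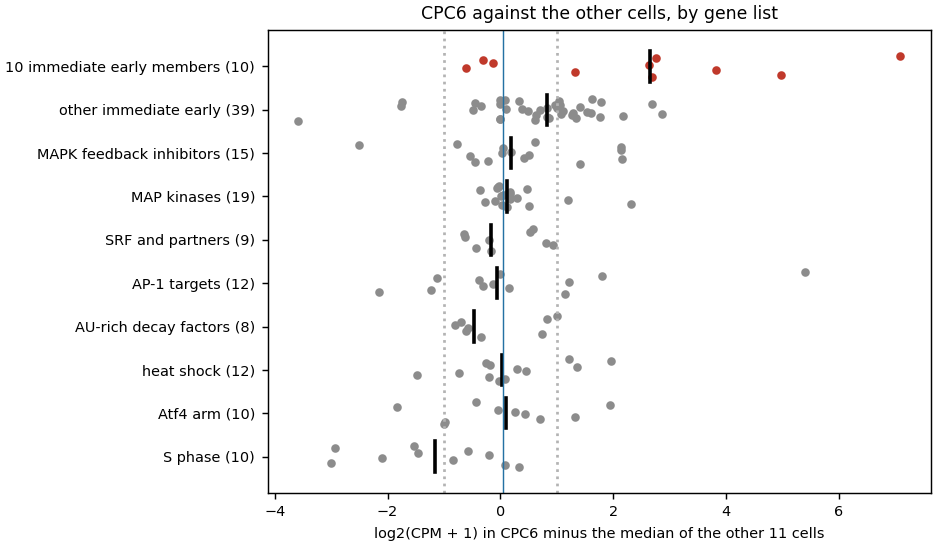
Difference in log2(CPM + 1) between CPC6 and the median of the other 11 cells for each gene, by list. Black bars are list medians, the blue line the median of all genes (0.05) and dotted lines mark differences of 1 in each direction; the 10 members have a median of 2.66 and the further immediate early genes one of 0.83.

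Lists for transcript decay, stress and cell type were set beside these values, with 17.0% higher and 6.57% lower over all genes. None of 8 factors for decay of AU-rich transcripts was past 2-fold, with a median difference of -0.46. Among 12 heat shock genes, Hspa1a (1.33 CPM against 0), Hspa1b (15.9 against 3.34) and Hspb1 (592 against 230) were higher. Hspd1 (132 against 367) was lower, and the list's median was 0.03. Hspa1a and Hspa1b were highest in CPC6, both at low levels. Of 10 genes of the Atf4 arm of the stress response, Ddit3 (274 CPM against 70.5) and Ppp1r15a (243 against 96.2) were higher and Trib3 (4.25 against 17.7) was lower, with a median of 0.11. Of 9 receptors for factors in the medium, Fgfr2 and Il6st were higher and Fgfr1, Pdgfra and Pdgfrb were lower, with a median of -0.01. Their sum was 313 CPM in CPC6, below the lowest other cell at 320 CPM and the median of 406 CPM. The medians of the heat shock and Atf4 lists thus lay near that of all genes, with members going both ways. A stress response in CPC6 was not tested.

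The summed endothelial markers stood at 17.0 CPM in CPC6, against 3.97 to 9792 CPM in the others with a median of 14.9. In CPC6, 7 of the 10 were at 0, Cdh5, Kdr, Tek and Emcn among them, and Vwf and Cldn5 had no count in any cell. Plvap, at 14.6 CPM against a median of 2.72 CPM, held most of the sum in CPC6, and Emcn and Egfl7 (2.13 CPM against 5.97) were at least 2-fold lower. Haematopoietic markers summed to 18.1 CPM, with 5 of the 10 at 0 including Ptprc and with Cd14 higher at 2.66 CPM against 0 and Cd68 lower at 3.72 against 15.5, where the others ran from 2.99 to 1623 CPM. Mural markers summed to 13.8 CPM, with 5 of 10 at 0, against 22.2 to 3737 CPM in the others. Acta2 (0 CPM against 31.2) and Pdgfrb (7.44 against 26.6) were at least 2-fold lower, while Cspg4 (2.13 CPM against 0) and Notch3 (3.19 against 0) were counted as higher. The fibroblast sum was 2106 CPM, against a median of 2055 CPM. Of the 10 fibroblast markers, Col1a1 (351 CPM against 152), Col1a2 (1348 against 637), Dcn (7.44 against 0) and Lum (3.19 against 0) were at least 2-fold higher in CPC6, against 17.0% of all genes, and Pdgfra was lower, and their part in the result was not tested. The cardiomyocyte sum was 2.66 CPM, against 0 to 86.6 CPM in the others with a median of 3.96. Of its 10 markers, 8 were at 0 in CPC6 including Myh6, and only 3 had a count in any cell. Myl2 at 1.33 CPM was counted as higher and Tnnt2 at 1.33 CPM against 3.96 as lower. The endothelial, haematopoietic, mural and cardiomyocyte sums were thus each under 20 CPM in CPC6. Of 10 S phase genes, Mcm2, Mcm3, Mcm5, Mcm7 and Rrm2 were at least 2-fold lower in CPC6, against 6.57% of all genes, the list's median was -1.16 and its sum 544 CPM against a median of 1304. Of 10 G2/M genes, Aurkb (21.5 CPM against 9.51) and Top2a (44.6 against 15.8) were at least 2-fold higher and Mki67 (5.58 against 13.9) was lower, with a list median of -0.15. The part of cell cycle position in the levels of the early genes was not tested.

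Across the 12 cells, the log2 sum of the 10 genes had a Pearson r of -0.69 with the heat shock sum and of -0.46 with the G2/M sum, and of -0.74 and -0.44 without CPC6. With the total count r was -0.06 (0.19 without CPC6), with the number of genes -0.10 (-0.38) and with the mitochondrial share -0.25 (-0.23). The fibroblast sum had an r of 0.38 (0.51), the endothelial sum 0.20 (0.30) and the S phase sum -0.12 (0.01). In these cells the heat shock and G2/M sums thus tended to be lower, and the fibroblast sum higher, where the early genes were higher. The sums can rest on few genes. The fibroblast sum of CPC10, 4017 CPM, was mostly Fn1 (3830 CPM), with 0.376 CPM of Col1a2. Hsp90aa1 and Hspa8 were the largest parts of the heat shock sum in CPC6, at 1303 and 934 of 3938 CPM. The cells fell apart by the number of genes detected, with 10022 to 10181 in CPC7, CPC8, CPC10, CPC11 and CPC12 and 11216 to 11950 in the other 7. The sum of the early genes ran from 522 to 1890 CPM in the 5 cells and from 369 to 3696 CPM in the 7, with medians of 1679 and 737 CPM. The highest of the 7 is CPC6, and the part of the number of genes detected was not tested.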

How the data were processed

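Smart-Seq v4 and Nextera XT libraries measured polyadenylated RNA in 12 cultured CPCs. The authors mapped reads to mm10 with STAR 2.5.2b, per the labels' processing notes, and deposited raw read counts per gene; the counting program, annotation and strand rule are not given in the sources used here. Cells were matched to columns by name and formed 1 group of 1 sample, so no test was made.

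Counts were divided by the total of the cell (3453708 to 5690184) to give CPM. CPC6 was compared with the median of the other 11 cells as the difference in log2(CPM + 1), and a difference of 1 or more was counted as 2-fold. Exact Poisson intervals at 95% and the floor of 3 counts cover counting error only. Genes were placed, and exon lengths taken, with GENCODE vM21, to which 98.3% of the symbols matched. Promoters came from RefSeq on GRCm38.p6. The members, CPC6 and the gene lists were chosen with earlier results of these data known. A gene of the AP-1 target list is not reported here and was left out of that list's values. The named genes were the 10 members, genes of the further immediate early, MAP kinase feedback and SRF lists past 2-fold with at least 10 CPM in CPC6 or in the median, the 10 genes most like Fos and most like the mean of the other 9 members, the 10 with the largest ratio of CPC6 to the next cell, and list genes where few were counted. Scales, pseudocounts, a filter at 5 CPM, thinning with seed 11 and each cell left out were the alternatives, as was leaving out CPC3 with CPC10, which was added after seeing the data for the share of all genes (with each cell left out) and the single members' differences. The 2-fold and highest-cell calls were run on simulated counts with Poisson error and some genes raised in CPC6. That simulation held no other variation between cells, so it does not cover the variation of real cells. The software was R 4.3.3 with edgeR 4.0.16 (for the TMM scale), and Python 3.11.15 with scipy 1.17.1, pandas 2.3.3, numpy 2.4.6 and matplotlib 3.10.9.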

Additional observations from a re-analysis of the deposited data

How the results depend on the processing

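The differences of the 10 genes moved by less than their spread over cells, with no change of sign, in all 70 values computed under 7 settings each, and on all 5 scales 7 of the 10 were at least 2-fold higher in CPC6. The largest moves came without CPC3 and CPC10, to 3.76 for Fosb, 3.46 for Dusp1 and 7.84 for Fos. Only Fosl1 was lower there, at -0.32. Over genes with a mean of 5 CPM or more, the median difference of all genes was 0.12 on the total-count scale and 0.03 on the TMM scale, a shift of -0.09. The summed ratio of 4.43 became 3.47 on the median-of-ratios scale, 2.96 without Fos and 1.73 against the highest other cell, and ran from 3.39 to 4.71 with 1 other cell left out. The share of all genes at least 2-fold higher in CPC6, 17.0%, became 21.8% with a pseudocount of 0.1 CPM, 8.22% with 5 CPM and 13.6% over genes with a mean of 5 CPM or more, and ran from 16.2 to 17.5% with 1 cell left out. The cause of these changes was not tested. With 1 cell left out, the number of members highest in CPC6 ran from 4 to 5 (5 without CPC10 and 5 without CPC12), their median difference from 2.38 to 2.93, and the number of further immediate early genes at least 2-fold higher from 14 to 17. Without CPC3 and CPC10, these were 5, 3.04 and 14. Leaving out CPC6 gives no value. No paired analysis was possible because there is 1 group. Depth limits the statements on Fos and Jun in CPC7 and CPC8, where the limit of 3 counts is 0.571 and 0.545 CPM.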

Other observations

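The genes in this paragraph were chosen after their values were seen. Sesn3, a sestrin that restrains growth signalling, had 87.7 CPM in CPC6, a median of 12.4 CPM in the other cells and at most 23.1 CPM there. Sesn1 had 36.1 CPM against a median of 9.20 and a highest value of 26.8 CPM. Pik3ip1, an inhibitor of phosphoinositide 3-kinase, had 55.8 CPM against 8.39 and 42.6 CPM in CPC7. Ccng2, which encodes an atypical cyclin, had 56.6 CPM in CPC6, inside the range of the others with 122 CPM in CPC9. Tsc22d3, which encodes the glucocorticoid-induced leucine zipper protein, had 233 CPM in CPC6 against a median of 42.9 and at most 76.3 CPM elsewhere. Of other glucocorticoid-responsive genes, Fkbp5 had 9.03 CPM against 12.4, while Sgk1 had 743 CPM against 307. A response to glucocorticoids was not tested.

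The metallothionein genes Mt1 and Mt2, which encode small metal-binding proteins, went the other way. Mt1 had 151 CPM in CPC6, the lowest of the 12 cells, with a median of 806 CPM in the others and 5990 CPM in CPC4. Mt2 had 2 counts in CPC6, or 0.531 CPM, against a median of 9.20 CPM and 227 CPM in CPC4. CPC4 was also the cell with the lowest summed level of the 10 immediate early genes. Each value is that of 1 cell and was not tested.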
